A study of Mus musculus with 6 samples.

Results

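The circadian clock genes were examined in macrophages that lacked progranulin (PGRN), a secreted glycoprotein encoded by Grn. The members were the 10 genes Arntl, Clock, Per1, Per2, Per3, Cry1, Cry2, Nr1d1, Nr1d2 and Dbp, found by symbol among the 54532 genes of the FPKM table (fragments scaled to gene length and library size). The series held 3 libraries of macrophages from wild type (WT) C57BL/6J mice, replicates 1, 2 and 3, and 3 of macrophages from progranulin knock out (PGRN KO) mice, replicates 4, 5 and 6. The labels place the cells in the peritoneal cavity, and all 6 cultures were exposed in vitro to Candida albicans, 1 fungal cell per macrophage, for 6 hours, so that no library of unchallenged cells was compared. The text of the study names bone marrow-derived macrophages and another ratio of fungus to cells, and the labels were followed here. The strain on the labels is C57BL/6J for both groups. The study's methods give different suppliers for the PGRN KO and the WT mice, so that genotype and colony cannot be told apart. The labels give neither the age of the mice that these macrophages came from nor the clock time of collection.

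In the mammalian clock, the proteins of Arntl (BMAL1) and Clock bind DNA as a pair at E-boxes and activate the Period, Cryptochrome and Rev-erb genes. PER and CRY proteins then repress that pair, which closes the main loop over about a day. The REV-ERB receptors (Nr1d1 and Nr1d2) repress Arntl, and DBP acts at D-boxes of output genes. Macrophages carry this clock, and REV-ERB receptors are known there as repressors of enhancers and inflammatory genes.

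Per1, Cry1, Cry2 and Nr1d2 were significantly lower in PGRN KO macrophages, and none of the 10 genes was significantly higher. Cry1 fell to 58.1% and Per1 to 61.0% of the mean WT FPKM, the 2 most abundant of the 10 transcripts. Arntl, the activator, stood at 90.3% of the WT mean and its groups overlapped. Of the 10 genes, 7 had a mean of at least 1 FPKM over the 6 libraries and entered the test, limma on log2(FPKM + 1) over 8882 genes with Benjamini-Hochberg adjustment and a threshold of 0.05. Of these 7 genes, 4 passed, all lower (57.1%), where 24.2% of all tested genes passed in either direction and 13.8% passed as lower. All 3 PGRN KO libraries lay below all 3 WT libraries for 6 of the 7 genes, and for 27.6% of all tested genes. Without WT replicate 3 only Per1 and Cry1 of the 4 passed. The Nr1d2 call was lost under 8 of the 16 alternative processings in which it was tested. The median log2 fold change was -0.50 over the 7 genes and -0.03 over all tested genes. Each of the 7 had a mean above 1 FPKM in PGRN KO alone, so that none had entered through WT only. An exact two-sided permutation test of a single gene cannot go below p = 0.1 with 3 against 3 libraries. The labels do not say whether the libraries of a group came from separate mice, and the p-values measure the spread between these libraries.

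Promoter windows are shown first for the transcripts on which the results turn, since BMAL1 and CLOCK act at E-boxes. RefSeq windows of 300 bases, 250 before and 50 after a transcript start (GRCm38.p6), were found for 9 of the 10 members, 13 windows in all. Per2 had no window and was not searched for motifs. The E-box CACGTG, which reads alike on both strands, occurred in the windows of 2 members, Per1 and Cry1, and in 7.15% of all 32851 windows. Here and below, a member counted if any of its windows held the motif, whereas the shares are of single windows, so that the figures are not alike. The related CACGTT, searched on both strands, occurred in those of 3 members, Cry1, Cry2 and Nr1d1, and in 4.68% of all windows. Ciart, a clock repressor outside the 10 genes, held 3 copies of CACGTG. Neither motif was found in the windows of Nr1d2 and of Rora, a clock gene outside the 10, although both transcripts passed the test as lower, so that lower transcripts occurred with and without a motif. Capitals mark CACGTG, or CACGTT as it reads on either strand.
Per1, chr11:69098699-69098998, plus strand: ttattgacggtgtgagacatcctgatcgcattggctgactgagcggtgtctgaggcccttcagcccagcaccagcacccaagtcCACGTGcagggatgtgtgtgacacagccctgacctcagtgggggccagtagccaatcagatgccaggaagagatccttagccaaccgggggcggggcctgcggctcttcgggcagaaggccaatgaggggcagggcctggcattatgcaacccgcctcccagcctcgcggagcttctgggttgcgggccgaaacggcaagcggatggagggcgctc
Cry1, chr10:85185005-85185304, minus strand: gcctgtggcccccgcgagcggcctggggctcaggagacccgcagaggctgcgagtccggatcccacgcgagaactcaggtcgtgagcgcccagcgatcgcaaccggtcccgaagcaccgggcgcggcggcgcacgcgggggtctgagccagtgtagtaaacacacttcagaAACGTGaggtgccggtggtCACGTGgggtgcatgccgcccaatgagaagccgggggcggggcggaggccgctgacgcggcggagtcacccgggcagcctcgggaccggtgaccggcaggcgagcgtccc
Cry2, chr2:92434020-92434319, minus strand: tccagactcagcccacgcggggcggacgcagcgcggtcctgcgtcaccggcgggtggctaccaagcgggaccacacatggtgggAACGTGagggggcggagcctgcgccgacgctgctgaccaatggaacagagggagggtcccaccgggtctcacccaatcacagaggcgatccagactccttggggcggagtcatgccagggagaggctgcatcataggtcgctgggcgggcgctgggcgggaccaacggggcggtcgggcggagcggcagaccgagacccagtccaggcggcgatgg
Ciart, chr3:95882179-95882478, minus strand: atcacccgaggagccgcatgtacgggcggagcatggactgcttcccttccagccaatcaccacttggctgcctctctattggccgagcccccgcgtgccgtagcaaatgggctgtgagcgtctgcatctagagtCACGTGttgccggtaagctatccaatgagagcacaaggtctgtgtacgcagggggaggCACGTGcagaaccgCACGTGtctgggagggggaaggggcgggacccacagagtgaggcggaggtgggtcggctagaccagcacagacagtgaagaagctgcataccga
Arntl, chr7:113207215-113207514, plus strand: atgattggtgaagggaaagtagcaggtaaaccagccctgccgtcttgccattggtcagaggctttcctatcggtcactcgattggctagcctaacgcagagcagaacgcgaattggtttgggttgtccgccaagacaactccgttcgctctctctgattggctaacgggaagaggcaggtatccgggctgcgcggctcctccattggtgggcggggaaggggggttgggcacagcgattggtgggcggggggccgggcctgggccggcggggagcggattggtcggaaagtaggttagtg
Nr1d2, chr14:18239057-18239356, minus strand: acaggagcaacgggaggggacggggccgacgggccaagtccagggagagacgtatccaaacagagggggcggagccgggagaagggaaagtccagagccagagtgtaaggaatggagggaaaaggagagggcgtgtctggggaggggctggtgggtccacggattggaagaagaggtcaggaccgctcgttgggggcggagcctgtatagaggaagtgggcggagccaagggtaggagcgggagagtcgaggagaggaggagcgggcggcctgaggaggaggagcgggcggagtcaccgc
The Arntl window stands here as the activator whose transcript did not pass the test and the Nr1d2 window as that of a lower transcript without either motif. Neither motif was found in the Arntl window shown or in the other Arntl window. Another Per1 window, chr11:69099902-69100201, also held neither motif and is not shown. Counted from the transcript start of the windows shown, the first base of CACGTG was at position -166 in Per1 and -60 in Cry1. The D-box motif TTATGNAA was searched on both strands. It occurred at 2 places in the window of Per3 and at 1 in the Per1 window shown, against 3.38% of all windows. AGGTCA, the core of sites bound by REV-ERB and ROR receptors, occurred in a window of Clock, Arntl, Per1 and Nr1d2 each, against 16.26% of all windows. A match of letters is a description of the window, and no binding was measured.

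The libraries were of similar depth, with 15996786 to 17551619 counted fragments. Grn itself ranged from 323 to 337 FPKM among WT and from 0 to 0.0167 FPKM among PGRN KO libraries. The macrophage gene Cd68 was at 1103 to 1344 FPKM. The resident peritoneal marker Gata6 was at 3.78 to 5.07 FPKM, whereas Timd4 did not exceed 0.204 FPKM. PGRN KO replicate 6 stood apart, since its values were shifted by a median of 0.285 on the log2 scale for gene models of at most 1775 bases and by -0.289 for those of at least 6950 bases, while such shifts ranged from -0.084 to 0.097 in the other libraries. Values of Arntl, Clock, Per2 and Rora are also given without it.

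The activators were examined first. Arntl (ENSMUSG00000055116, chromosome 7, 113207465 to 113314126, GRCm38) encodes BMAL1, the partner of CLOCK. WT replicates 1, 2 and 3 gave 1.87, 1.96 and 1.97 FPKM. PGRN KO replicates 4, 5 and 6 gave 2.00, 1.78 and 1.45 FPKM. The groups overlapped, since PGRN KO replicate 4 was the highest of all 6 libraries and replicate 6 the lowest. The log2 fold change was -0.10 ± 0.10 (SE) with a 95% interval of -0.35 to 0.15 and a limma adjusted p of 0.513. Without PGRN KO replicate 6 the log2 fold change was -0.02 with a limma adjusted p of 0.850. The test did not show a difference, and the interval leaves room for a decrease of up to 0.35 on the log2 scale.

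Clock (chromosome 5, 76209868 to 76304792) encodes the partner of BMAL1. Its values were 3.74, 4.25 and 3.54 FPKM in WT against 2.86, 3.34 and 1.40 FPKM in PGRN KO. The groups did not overlap, but PGRN KO replicate 6 lay far below the other 2 knockout libraries. The gene model of 13727 bases is the longest of the 10, and length moved with the deviation of that library, the cause of which was not tested. The fitted difference was -0.50 ± 0.22 (SE) on the log2 scale (limma adjusted p = 0.139), and without PGRN KO replicate 6 it was -0.24 with an adjusted p of 0.0894. With a correction for gene length the difference was -0.28 (limma adjusted p = 0.105). When PGRN KO replicate 6 was also left out, it was -0.18 (limma adjusted p = 0.152).

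Among the repressors of the Period family, which bring kinases to the complex that represses CLOCK and BMAL1, Per1 showed the clearest difference. Per1 (ENSMUSG00000020893, chromosome 11, 69095217 to 69109960) was at 30.5, 30.1 and 29.6 FPKM in WT. The PGRN KO libraries gave 19.2, 19.1 and 16.8 FPKM. The WT libraries lay within 1 FPKM of each other, and every knockout library was lower by more than 10 FPKM. The mean fell from 30.1 ± 0.457 to 18.4 ± 1.39 FPKM (SD, n = 3 each), which rested on 8395 fragments in WT and 5544 in PGRN KO. The fitted difference was -0.69 ± 0.09 (SE) on the log2 scale (limma adjusted p = 0.00369), and 4.78% of the tested genes had a lower fold change.

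Per2 (chromosome 1, 91415982 to 91459324), the paralog of Per1, was less abundant than Per1 in every library. It was at 2.11, 1.67 and 2.01 FPKM in WT against 1.39, 1.63 and 0.632 FPKM in PGRN KO. The groups did not overlap, although PGRN KO replicate 5 and WT replicate 2 lay next to each other, and replicate 6 was again the lowest. The log2 fold change was -0.43 ± 0.19 (SE) and did not pass, with a limma adjusted p of 0.136. Without PGRN KO replicate 6 it was -0.22, with an adjusted p of 0.133. Per3 (chromosome 4, 151003652 to 151044665) was near the limit of detection, with 65 fragments over the WT libraries and 48 over the PGRN KO libraries. Its values were 0.118, 0.106 and 0.179 FPKM in WT against 0.156, 0.0715 and 0.0542 FPKM in PGRN KO, and the groups overlapped.

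Both cryptochromes, the proteins that directly block CLOCK and BMAL1, were significantly lower. Cry1 (ENSMUSG00000020038, chromosome 10, 85131700 to 85185064) was at 16.4, 15.3 and 15.1 FPKM in WT. In PGRN KO it was at 9.14, 9.71 and 8.37 FPKM. The groups were widely separated and both were tight. The mean fell from 15.6 ± 0.718 to 9.07 ± 0.674 FPKM (SD, n = 3 each), a fitted difference of -0.72 ± 0.09 (SE) on the log2 scale (limma adjusted p = 0.00340). This adjusted p was the smallest among the members. The WT mean was 1.72 times the PGRN KO mean.

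Cry2 (chromosome 2, 92403646 to 92434043) was measured at 3.24, 3.62 and 3.99 FPKM in WT. The PGRN KO libraries gave 2.06, 2.32 and 2.09 FPKM. Every WT library lay above every knockout library, and replicate 6 did not stand out from the other knockout libraries in this gene. The mean fell from 3.62 ± 0.373 to 2.15 ± 0.142 FPKM (SD, n = 3 each), a fitted difference of -0.55 ± 0.10 (SE) on the log2 scale (limma adjusted p = 0.0103). Without WT replicate 3 the adjusted p was 0.0504. The exons of D930015M05Rik, on the opposite strand, cover 4.67% of the Cry2 exon bases, but that gene stood at only 0.220 FPKM in WT against 0.248 FPKM in PGRN KO on average.

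**Figure D1:**
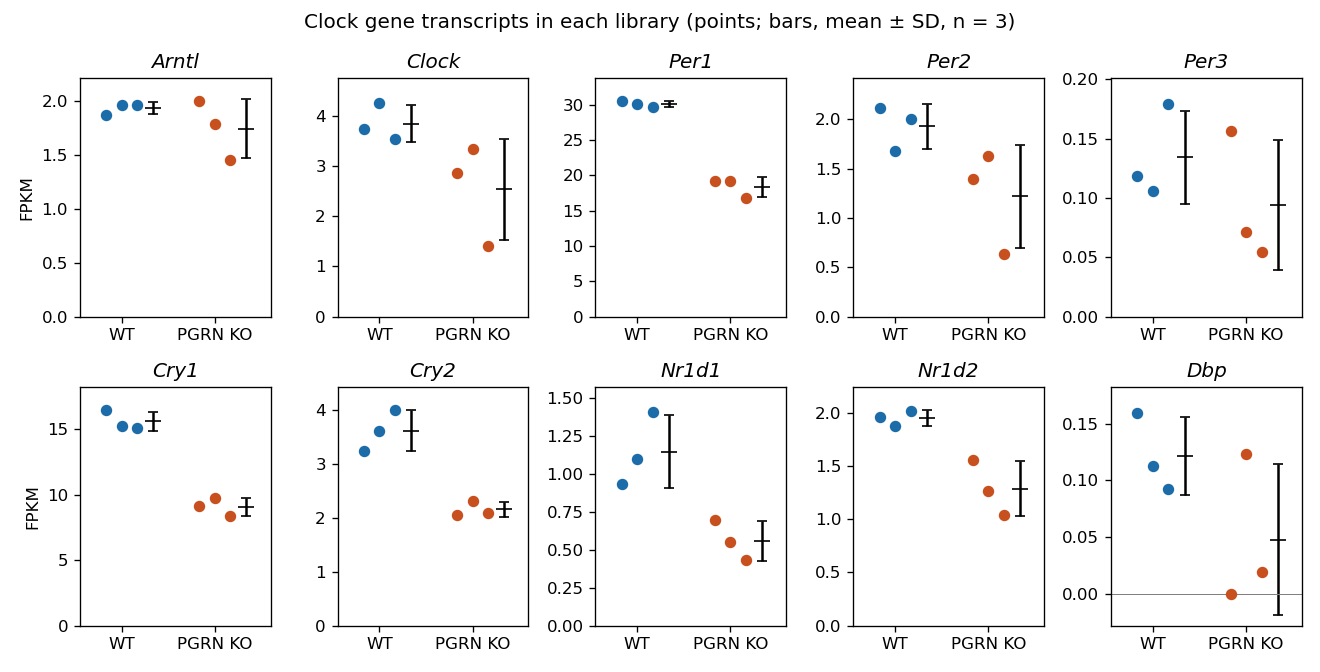
FPKM of the 10 clock genes in each WT (blue) and PGRN KO (orange) library, with the mean and SD of 3 libraries as black bars and a separate linear axis for each gene. For Per1, Cry1, Cry2, Nr1d1 and Nr1d2 the groups are apart, for Clock and Per2 they are apart with PGRN KO replicate 6 (the right-hand orange point) far below, and for Arntl, Per3 and Dbp they overlap. The SD bar of Dbp in PGRN KO reaches below 0, 1 of its libraries being at 0.

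The REV-ERB receptors close the second loop by repressing Arntl. Nr1d2 (REV-ERB beta, chromosome 14, 18204054 to 18239127) was at 1.97, 1.88 and 2.02 FPKM in WT. The PGRN KO libraries gave 1.56, 1.27 and 1.04 FPKM. The groups did not overlap, and the knockout libraries were spread more widely than the WT libraries. The fitted difference was -0.37 ± 0.11 (SE) on the log2 scale (limma adjusted p = 0.0493), close to the threshold. Leaving out WT replicate 1, 2 or 3 ended the call (0.154, 0.125 and 0.145), as did leaving out PGRN KO replicate 5 (0.102) or using a TPM scale, on which every library has the same sum (0.166). The call was also lost with a pseudocount of 0.1 (0.0567) and without a filter (0.131). A length correction with PGRN KO replicate 6 left out ended it too (0.0551).

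Nr1d1 (REV-ERB alpha, chromosome 11, 98767932 to 98775333) had a mean of 0.852 FPKM and was not tested above. It was at 0.932, 1.10 and 1.40 FPKM in WT, which were 48, 50 and 78 fragments. In PGRN KO it was at 0.694, 0.549 and 0.433 FPKM, which were 37, 32 and 23 fragments. All knockout libraries lay below all WT libraries, and the PGRN KO mean was 48.8% of the WT mean. With limma voom on fragments recovered from the FPKM, run over 14240 genes with a mean of at least 3 fragments per library, Nr1d1 had a log2 fold change of -1.04 ± 0.27 (SE) with an adjusted p of 0.0278. In the same fit Per1, Cry1, Cry2 and Nr1d2 also passed, so that 5 of the 10 members were called lower, beside 9.53% of all genes in that fit. On log2(FPKM + 1) without a filter Nr1d1 did not pass, with an adjusted p of 0.103. Exons of Thra, on the opposite strand, cover 8.55% of the Nr1d1 exon bases, and no source used here says whether reads were assigned by strand. Thra averaged 2.64 ± 0.233 FPKM among WT and 1.93 ± 0.537 FPKM among PGRN KO libraries (SD, n = 3 each) with a limma adjusted p of 0.149. Nr1d1 lies 3.66 megabases from the targeted Grn on chromosome 11, and Per1 lies 33.34 megabases from it on the same chromosome.

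Dbp (chromosome 7, 45705088 to 45710203), the D-box activator and a usual marker of clock output, was hardly detected. It was at 0.160, 0.113 and 0.0926 FPKM in WT against 0, 0.124 and 0.0193 FPKM in PGRN KO. These values stood for 18 fragments over the WT libraries and 8 over the PGRN KO libraries. Pooled over libraries, the level was 0.121 FPKM in WT (95% exact Poisson interval 0.0719 to 0.192) and 0.0499 FPKM in PGRN KO (0.0216 to 0.0984), intervals that cover counting error only. The groups overlapped, and a difference was not detectable at this depth. The exons of Sphk2, on the opposite strand, cover 18.01% of the Dbp exon bases, and Sphk2 averaged 11.4 FPKM among WT and 12.0 FPKM among PGRN KO libraries.

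The levels per length set the members in order. In WT, Per1 (30.1 FPKM) and Cry1 (15.6 FPKM) were followed by Clock (3.84 FPKM) and Cry2 (3.62 FPKM), which overlapped. Nr1d2, Arntl and Per2 (1.95, 1.93 and 1.93 FPKM) could not be told apart. Nr1d1 came next, and Per3 and Dbp were lowest and overlapped. In PGRN KO, Per1 and Cry1 were again first and Per3 and Dbp again last, while Arntl (1.74 FPKM) had a mean above those of Nr1d2 (1.29 FPKM) and Per2 (1.22 FPKM), although its range overlapped theirs.

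Ratios within a library do not depend on the scaling between libraries. A shift with gene length, as in PGRN KO replicate 6, does not cancel in a ratio of genes of unlike length. The gene models have 7523 bases for Arntl, 5631 for Per1 and 3340 for Cry1. The Per1 level was 16.4, 15.4 and 15.1 times that of Arntl in WT and 9.62, 10.7 and 11.5 times in PGRN KO. The Cry1 to Arntl ratio was 8.81, 7.80 and 7.69 in WT and 4.58, 5.44 and 5.76 in PGRN KO. The groups were apart for both ratios, so that the Per1 and Cry1 transcripts were lower relative to the Arntl transcript. Ratios of these to Clock, the other activator, and of Per2 to Arntl were not taken. The Cry2 to Arntl ratio was 1.87 ± 0.147 against 1.25 ± 0.206 and the Nr1d2 to Arntl ratio 1.01 ± 0.0497 against 0.736 ± 0.0394 (WT against PGRN KO, SD, n = 3 each), again with the groups apart. By contrast, the Per1 to Cry1 ratio averaged 1.93 ± 0.0622 among WT and 2.02 ± 0.0663 among PGRN KO libraries (SD, n = 3 each), and all its PGRN KO values lay above all WT values by a small margin, 1.97 being both the highest WT and the lowest PGRN KO value after rounding. An exact two-sided permutation test of any of these ratios cannot go below p = 0.1, and none was called from it.

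**Figure D2:**
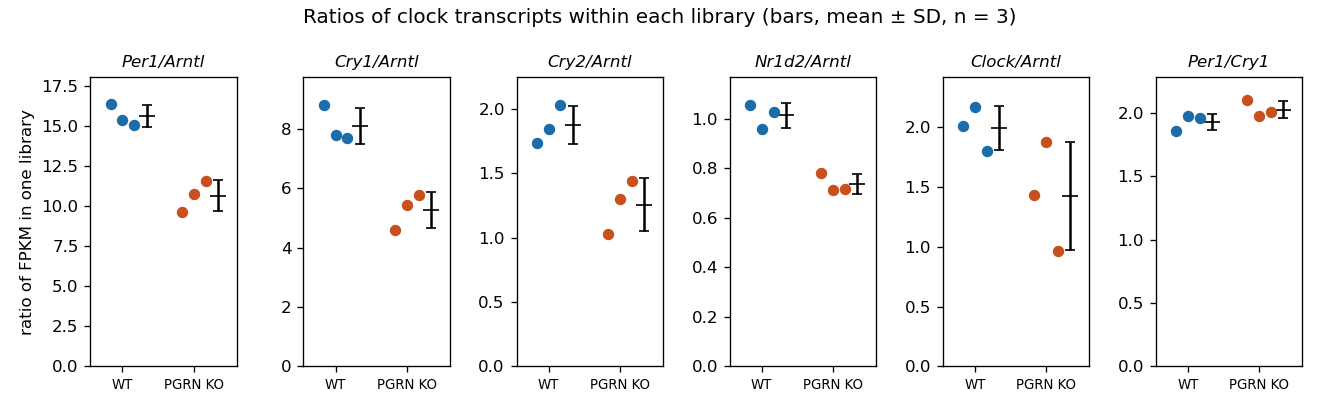
Ratios of the FPKM of 2 clock genes within each WT (blue) and PGRN KO (orange) library, with mean and SD as black bars and each axis starting at 0. Per1, Cry1, Cry2 and Nr1d2 relative to Arntl were lower in every PGRN KO library than in any WT library, while Clock relative to Arntl overlapped between the groups and the Per1 to Cry1 ratio stayed between 1.86 and 2.10.

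The genes whose pattern over the 6 libraries was nearest to that of Cry1, the member with the smallest adjusted p, were sought next. Likeness was the root mean square difference between log2(FPKM + 1) values centred on each gene's mean. The nearest 5 genes outside the clock were Fam107b (0.0321), Washc2 (0.0330), Arl8b (0.0342), Tollip (0.0380) and Adi1 (0.0414). Among the members, Per1 was nearest to Cry1 at 0.0407, close behind Tollip, whereas Cry2 was at 0.139 and Arntl at 0.322. Tollip, an adaptor that restrains Toll-like receptor signalling, averaged 85.3 ± 1.47 FPKM among WT and 51.7 ± 3.36 FPKM among PGRN KO libraries (SD, n = 3 each). These 5 genes were chosen for values like those of Cry1, so that their difference between genotypes is a description with no test.

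Next, 26 other genes of the clock were examined, of which 17 were tested. A total of 6 (35.3%) passed, all of them lower, beside 13.8% of all tested genes. Without WT replicates 1, 2 and 3 in turn the number was 1, 1 and 2. The list had a median log2 fold change of -0.26. Ciart (CHRONO), which like the CRY proteins represses BMAL1 and CLOCK, had the largest fall of the tested clock genes, although Rora fell more without PGRN KO replicate 4 or 5. It was at 8.04, 8.40 and 8.24 FPKM in WT against 3.65, 3.22 and 3.94 FPKM in PGRN KO. The fitted difference was -1.005 ± 0.09 (SE) on the log2 scale (limma adjusted p = 0.00142), and Ciart passed under all 17 alternatives run (adjusted p 3.345e-05 to 0.0148). Bhlhe40 (DEC1), a repressor that competes for E-boxes, fell from 253 ± 12.1 to 177 ± 4.62 FPKM (SD, n = 3 each) with a limma adjusted p of 0.00929, which was 0.0673 and 0.0535 without WT replicates 1 and 2. Its paralog Bhlhe41 was at 14.7 ± 0.846 and 15.0 ± 0.536 FPKM (limma adjusted p = 0.782).

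Rora, the receptor that activates Arntl at the sites where REV-ERB receptors repress it, was at 10.8, 11.3 and 9.71 FPKM in WT. The PGRN KO libraries gave 6.38, 6.46 and 2.82 FPKM, replicate 6 being the lowest in a gene model of 13071 bases. Its fitted difference was -0.96 ± 0.26 (SE) on the log2 scale (limma adjusted p = 0.0365). The adjusted p was 0.115, 0.121 and 0.0898 without WT replicates 1, 2 and 3 and 0.0830 on a TPM scale. Without PGRN KO replicate 6 the difference was smaller, at -0.64, with an adjusted p of 0.00191. Nfil3 (E4BP4), the repressor that opposes DBP at D-boxes, was at 137 ± 4.66 and 125 ± 17.6 FPKM (SD, n = 3 each, limma adjusted p = 0.422). Tef, a relative of Dbp, had a mean below 1 FPKM. With voom on recovered fragments it was lower by a log2 fold change of -0.78 with an adjusted p of 0.0291, but on log2(FPKM + 1) without a filter the adjusted p was 0.157. It was at 0.885 to 1.20 FPKM in WT against 0.485 to 0.732 FPKM in PGRN KO.

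Of the kinases, ligases and proteases that act on PER and CRY proteins, 9 of 12 were tested and 3 (33.3%) passed, all lower, beside 13.8% of all tested genes. All 3 calls were lost when any 1 WT library was left out. Csnk1d and Csnk1e, the casein kinases that phosphorylate PER proteins, had log2 fold changes of -0.31 and -0.39 with limma adjusted p of 0.0396 and 0.0307. Their adjusted p was 0.0803 to 0.145 without any 1 of the WT libraries, and the calls were also lost without PGRN KO replicate 4 or 5 in turn (0.0533 to 0.105) and on a TPM scale (0.150 for both). Usp7, a deubiquitinase, had a log2 fold change of -0.43 and an adjusted p of 0.0215, which was 0.0737 to 0.0962 without any 1 of the WT libraries and 0.128 on a TPM scale. The other 6 tested genes of this group did not pass. Of the 9 tested, 4 were lower without overlap and 1 higher, Fbxw7 (1.92 ± 0.127 against 2.30 ± 0.298 FPKM, SD, limma adjusted p = 0.255). Btrc and Usp2, below a mean of 1 FPKM, went opposite ways without overlap. With voom on recovered fragments Btrc was higher, at a log2 fold change of 0.45 (adjusted p = 0.0725), and Usp2 lower, at -0.88 (adjusted p = 0.104). The activator paralogs Npas2 and Arntl2 did not exceed 0.107 FPKM in any library. Npas2 was higher without overlap on 4 fragments over the WT and 14 over the PGRN KO libraries, whereas Arntl2 overlapped (21 and 8).

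Finally, 16 genes known as clock outputs, as REV-ERB targets in macrophages or as glucocorticoid-inducible genes were read from the same fit. Of the 13 that were tested, 6 were significantly lower and 1 significantly higher (53.8% in either direction, beside 24.2% of all tested genes). Those called include Mmp9 and Fkbp5, which entered the test only through the group where each was high. The share therefore cannot be read as a result about the list. Without WT replicate 1 or 2 in turn 3 passed. Klf10, a rhythmic repressor, fell from 5.95 ± 0.502 to 2.90 ± 0.490 FPKM (SD, n = 3 each) with a limma adjusted p of 0.00539. The Klf10 call was kept under all 16 alternatives in which it was tested. Por, which feeds electrons to cytochrome P450 enzymes, fell from 79.0 ± 2.50 to 50.8 ± 9.03 FPKM (limma adjusted p = 0.0158), a call lost without any 1 of the WT libraries (0.0643 to 0.0677). Among the REV-ERB targets, which these receptors repress, Nlrp3 fell from 289 ± 48.1 to 179 ± 25.5 FPKM (limma adjusted p = 0.0253). The Nlrp3 call was lost without WT replicate 1 or 2 (0.0992 and 0.0945), without PGRN KO replicate 5 (0.0530), without a filter (0.0739) and with quantile normalization (0.0623). Mmp9 fell from 1.79 ± 0.204 to 0.320 ± 0.138 FPKM (limma adjusted p = 0.00211), while Ccl2 and Il6 did not pass (0.150 and 0.157). Of the 13 tested output genes, 8 were lower without overlap and 1, Fkbp5, higher. Among those not tested, Wee1 was higher without overlap (0.469 ± 0.0518 against 0.737 ± 0.177 FPKM, SD), and Cx3cr1 and Zbtb16 overlapped. With voom on recovered fragments the log2 fold change of Wee1 was 0.61 (adjusted p = 0.149).

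The glucocorticoid-inducible genes went in both directions. Dusp1 fell from 333 ± 36.1 to 209 ± 21.3 FPKM (limma adjusted p = 0.0119), a call lost without WT replicate 1 or 2 (0.0617 and 0.0546). Sgk1 fell from 208 ± 14.1 to 155 ± 3.16 FPKM (limma adjusted p = 0.0189), a call lost without WT replicate 1 or 2 (0.102 and 0.0905), without PGRN KO replicate 4 (0.0578) and on a TPM scale (0.0546). Fkbp5 rose from 0.760 ± 0.0766 to 1.70 ± 0.110 FPKM (limma adjusted p = 0.00594). Mmp9 and Fkbp5 reached a mean of 1 FPKM only through the group in which each was high, so that the count of output genes includes 2 that had to differ to be tested. Without the filter the limma adjusted p was 0.0111 for Mmp9 and 0.0259 for Fkbp5.

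**Figure D3:**
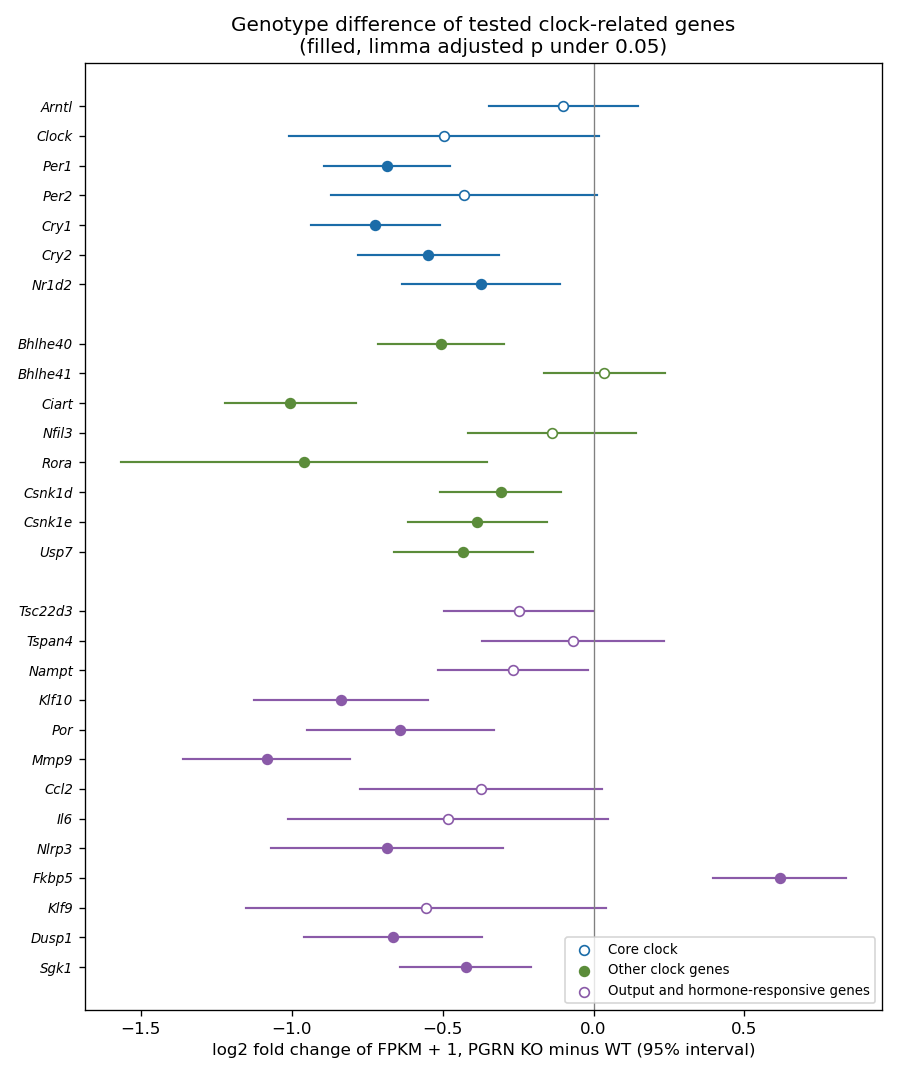
Log2 fold change of FPKM + 1, PGRN KO minus WT, with the 95% interval from limma, for the tested clock members (blue), other clock genes (green, transcription factors and the kinases and protease that passed) and output or hormone-responsive genes (purple). Filled points passed an adjusted p of 0.05, and every filled point except Fkbp5 lies below 0.

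Many, but not all, markers of other cells moved with genotype in the same libraries. The summed FPKM of 4 B cell markers was 1.41 to 2.47 in WT and 6.31 to 8.77 in PGRN KO, all 4 higher without overlap. The summed FPKM of 4 mast cell markers was 1.26 to 1.83 in WT and 6.14 to 8.69 in PGRN KO, again all 4 higher without overlap. For 5 markers of T and NK cells the sums were 0.789 to 0.909 and 1.41 to 1.68, although Cd3g and Ncr1 overlapped. For 5 markers of mesothelial cells and fibroblasts they were 0.323 to 0.578 and 0.710 to 1.41. Of these 5, only the collagen genes Col1a1 and Col1a2 were higher without overlap. The mesothelial genes Msln and Upk3b overlapped and had lower means in PGRN KO. Of 6 neutrophil markers, Ly6g and Elane were at 0 in all libraries and S100a8 made up nearly all of a sum of 48.8 to 53.1 in WT and 21.4 to 26.3 in PGRN KO. The 6 macrophage markers summed to 1434 to 1573 FPKM in WT against 1362 to 1589 FPKM in PGRN KO, but single markers moved within this sum. Mertk was higher (1.41 ± 0.229 against 3.24 ± 0.514 FPKM, limma adjusted p = 0.00640) and Csf1r lower (32.5 ± 1.29 against 24.7 ± 0.905 FPKM, limma adjusted p = 0.0178). Itgam was lower without overlap but did not pass (50.3 ± 0.381 against 42.9 ± 1.95 FPKM, limma adjusted p = 0.0848). The 3 resident peritoneal markers summed to 6.92 to 7.53 FPKM in WT against 9.22 to 10.1 FPKM in PGRN KO, but did not move together. Icam2 was higher without overlap (3.10 ± 0.163 against 5.10 ± 0.526 FPKM, SD) and Gata6 overlapped. Timd4, with only 16 fragments over the WT and 3 over the PGRN KO libraries, was lower without overlap. The part of these cells in the clock gene differences was not tested, and in bulk libraries fewer cells of a type and less RNA per cell cannot be told apart.

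**Figure D4:**
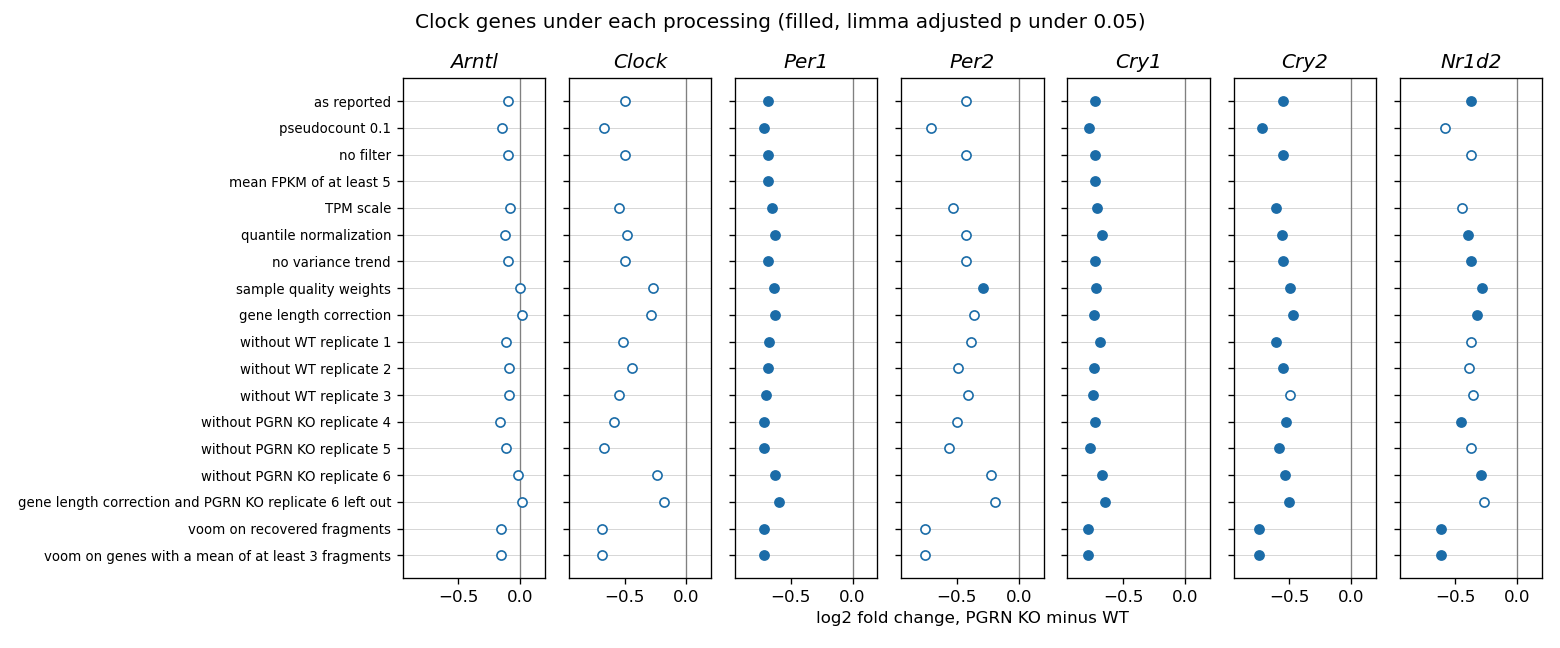
Log2 fold change, PGRN KO minus WT, of the 7 tested clock genes under the reported processing and 17 alternatives, filled where the limma adjusted p was under 0.05. A missing point is a gene below the stricter filter. Per1 and Cry1 are filled throughout, Cry2 is open only without WT replicate 3, and Arntl lies near 0 throughout.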

How the data were processed

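Polyadenylated RNA of macrophages was sequenced in 3 WT and 3 PGRN KO libraries. The authors aligned reads with HISAT and deposited FPKM per gene and library. The submitters' notes name HISAT2 2.0.5, featureCounts 1.5.0-p3 and GRCm38 (mm10), whereas the paper names HTSeq for counting. Of the gene identifiers, 99.93% were found in GENCODE M21 (GRCm38), 98.17% of them with the same coordinates.

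In each library, the product of deposited FPKM and gene length came in whole steps for 100.0% of values above 0 (tolerance 0.001 of a step), which gave the fragments counted, 15996786 to 17551619 per library. Values were tested as log2(FPKM + 1), a scale that understates changes of genes with low FPKM, with limma 3.58.1 in R 4.3.3 (mean-variance trend, no covariates, two-sided) over the 8882 genes that averaged 1 FPKM or more. The test was tried on simulated counts with the same dispersion for all genes and without the length shift of PGRN KO replicate 6. That trial cannot show how the test behaves on libraries with such a shift. Every pair of libraries differed by more than sampling noise. The members and lists were chosen with earlier results of these data known. All members were named, other listed genes where they passed or, as examples, where they did not (Bhlhe41, Nfil3, Tef and others, chosen after their values were seen), and the 5 genes most like the member with the smallest adjusted p. The alternatives were a pseudocount of 0.1, no filter, a mean FPKM of at least 5, a TPM scale, sample quality weights, quantile normalization, a fit without variance trend, a loess correction for gene length (span 0.5) and omission of each library. Voom on recovered fragments, with 2 filters, and the length correction without PGRN KO replicate 6 were added after seeing the data. Some listed genes are counted in the totals but not reported here by name.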

Additional observations from a re-analysis of the deposited data

How the results depend on the processing

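Across 17 alternatives, 114 comparisons with the 7 tested clock genes were made. Direction and call were kept in 102, the call was lost in 9 (8 for Nr1d2 and 1 for Cry2), gained in 1 (Per2 with sample quality weights, adjusted p 0.0458) and the sign changed in 2. Per1 and Cry1 passed under all 17, with log2 fold changes of -0.72 to -0.60 and -0.78 to -0.65, and Grn also passed as lower in each of the 17. The sign changes were those of Arntl, at 0.011 after the gene length correction and 0.017 when PGRN KO replicate 6 was also left out, with no call in either. Of the libraries left out singly, PGRN KO replicate 6 moved Clock and Per2 the most.

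The 4 members past the threshold became 2 with a mean FPKM of at least 5, where fewer genes were tested, and 2 (without WT replicate 3) to 4 with each library left out. The 6 other clock genes became 3 without a filter and 2 on a TPM scale, and 1 to 8 with each library left out. The 7 output genes became 4 with a mean FPKM of at least 5, 12 with sample quality weights and 3 to 9 with each library left out. Over all genes, 2151 passed (42.8% of them higher), and 1504 on a TPM scale (60.6% higher). The number was 1366 without a filter, 4225 with sample quality weights, 3664 when the length correction and omission of PGRN KO replicate 6 were joined, and it ran from 713 (without WT replicate 1) to 3668 (without PGRN KO replicate 6) with each library left out. The cause was not tested for the other shifts. Depth limits Nr1d1, Per3 and Dbp. No paired analysis was made because the labels name no pairing of WT with PGRN KO libraries. Replicates 1 to 3 are all WT and replicates 4 to 6 all PGRN KO, and this numbering cannot show whether a pairing existed.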
